A study of Canis lupus familiaris with 4 samples.

Results

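The annexins are a family of proteins that bind phospholipid membranes in a calcium-dependent way through a conserved core of repeats, with an N-terminal part that differs between members and binds partners such as S100 proteins. They act in membrane repair, vesicle traffic and membrane organisation, and ANXA2 also assembles plasminogen and its activator on the cell surface. Probe sets listed with a single annexin symbol among ANXA1, ANXA2, ANXA3, ANXA4, ANXA5, ANXA6, ANXA7, ANXA8 and ANXA11 were taken. Of these 9 genes, 8 had a probe set, among 15115 genes with a symbol on the array, and no probe set was listed as ANXA8. The 8 genes had 20 probe sets, of which 17 reached the signal limit of 250 on at least 1 array and 16 on all 4.

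The arrays are labelled J3T-1 (high annexin A2), J3T-1shA (annexin A2 knockdown in J3T-1), J3T-2 (low annexin A2) and J3T-2A (annexin A2 overexpression in J3T-2), and line names below stand for the arrays so labelled. J3T-1 and J3T-2 are subclones of the same canine glioblastoma line, and all lines were grown in serum-containing medium. Whether J3T-1 and J3T-2 carried a control vector, and how many clones J3T-1shA and J3T-2A came from, was not given in the sources used here. Signals of J3T-2A were divided by those of J3T-2 (the overexpression comparison) and signals of J3T-1 by those of J3T-1shA (the knockdown comparison). Signals of J3T-1 were also divided by those of J3T-2 (the parental comparison), which shares an array with each of the others. They address whether other annexins had a higher signal where ANXA2 was labelled low, and how bright signals limit such a reading.

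Values are MAS 5.0 signals, which are linear intensities scaled by the authors to one trimmed mean per array. There was 1 array per line and no replicate, so no ratio carries a test and the number of arrays limits every value. As a yardstick, the log2 ratios of both brightest measured probe sets of a gene differed with an SD of 0.29 in the overexpression comparison (3718 genes), 0.37 in the knockdown comparison (3769 genes) and 0.37 in the parental comparison (3764 genes). This spread, called the probe-set spread here, covers differences between probe sets of a gene read on the same pair of arrays. Errors of an array shared by both probe sets cancel out of it, and variation between cultures is not covered. In bulk RNA, fewer cells of a type and less RNA per cell cannot be told apart. Of 8 glial and neural stem markers with a probe set, SOX2, VIM, SLC1A3 and CD44 reached 250 on all 4 arrays and NES on 1, whereas the astrocyte markers GFAP (8.20 to 21.6) and S100B (12.7 to 33.6) were under it throughout. Of 6 microglia and macrophage markers, C1QA reached 250 on all 4 arrays (298 to 661.5) and the others, PTPRC (11.5 to 35.1) among them, on none. Of 5 endothelial markers, PECAM1 reached it in J3T-2 (773.2, against 1.0 to 161 elsewhere) and the others on none. Among neuronal markers NEFL alone reached 250 (2134.2 to 15463.4), and among oligodendrocyte markers CNP alone did (396.9 to 1019.4). Among epithelial markers only KRT8 did (288 to 1076.3). These genes were at 250 or more on all 4 arrays, and each was over 2-fold different in at least 1 comparison.

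No annexin was over 2-fold different by its brightest probe set in any comparison. This was 0 of 8 genes in the overexpression comparison, where 3.79% of all measured genes were over 2-fold different, 0 of 8 in the knockdown comparison (8.06% of all) and 0 of 8 in the parental comparison (6.99% of all). Among single probe sets, 0 of 16, 1 of 17 and 0 of 16 were over 2-fold different, against 3.71%, 8.43% and 7.3% of all measured probe sets. The exception was a probe set of ANXA6. Counted against the smaller probe-set spread, 1 of 8 annexins lay beyond it in the overexpression comparison (34.4% of all genes did), 6 of 8 in the knockdown comparison (40.5% of all) and 2 of 8 in the parental comparison (40.4% of all). The members beyond it were ANXA3 in the first comparison, ANXA1, ANXA5 and ANXA11 higher and ANXA3, ANXA4 and ANXA6 lower in the second, and ANXA3 and ANXA5 in the third. The 6 of the knockdown comparison became 4 under quantile normalization or median centring, without ANXA1 and ANXA11, and 4 with the median over probe sets of a gene, without ANXA3 and ANXA11. The median log2 ratio of the 8 genes was 0.042, 0.042 and -0.024, beside -0.0034, 0.033 and 0.027 for all measured genes.

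**Figure D1:**
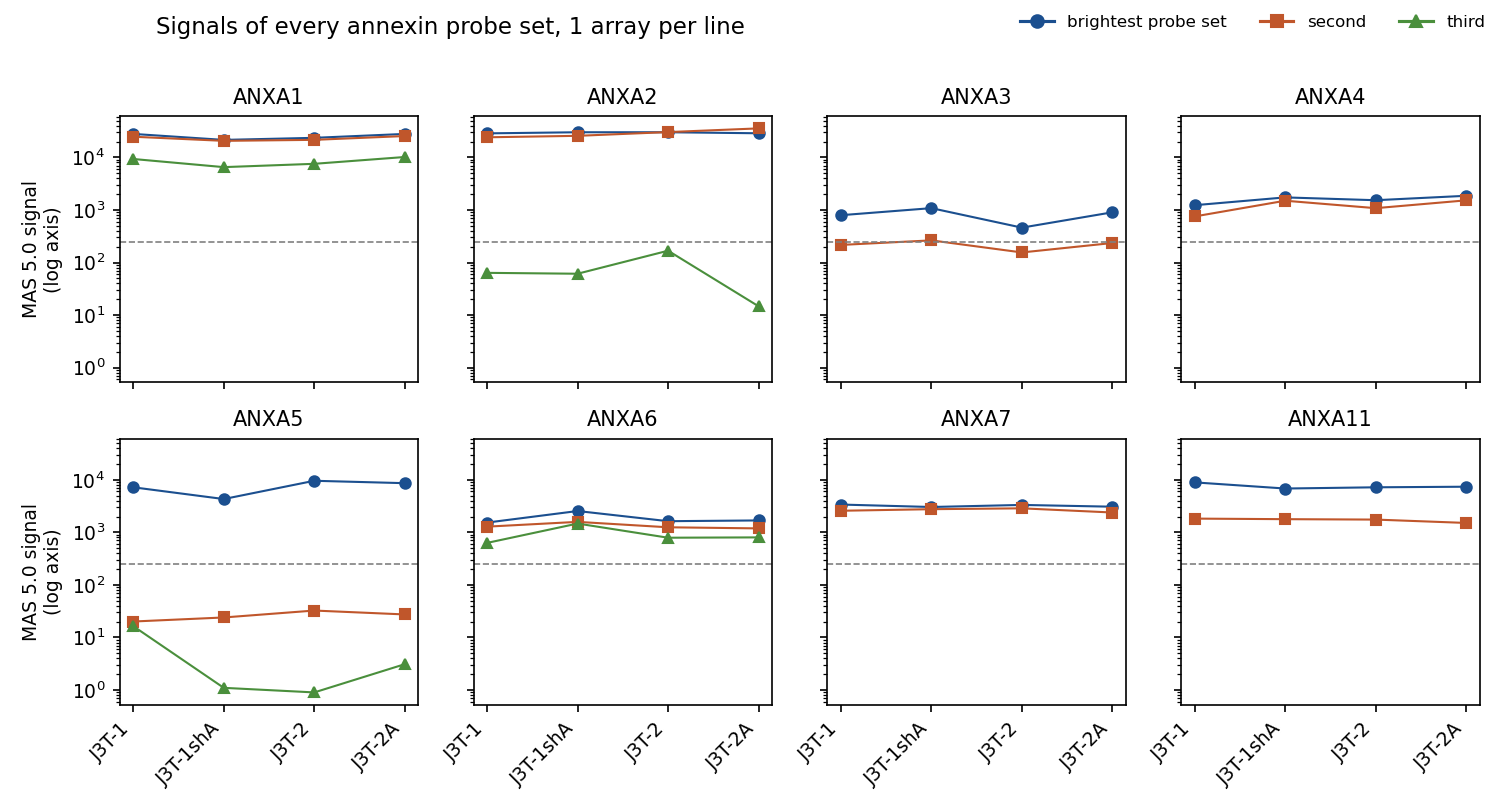
MAS 5.0 signal (log axis) of each of the 20 probe sets of 8 annexin genes on the 4 arrays, 1 array per line, with the limit of 250 as a dashed line and lines joining the values of a probe set only to guide the eye. The bright probe sets of ANXA2 and ANXA1 lie near the top of the scale, ANXA3 is lowest in J3T-2, ANXA5 is lowest and ANXA6 highest in J3T-1shA, and 3 probe sets of ANXA2 and ANXA5 stay under the limit.

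ANXA2, the gene silenced or overexpressed, had nearly level signals by its brightest probe set and varied by log2 0.56 over the arrays by its second. Its brightest probe set had signals of 28656 in J3T-1, 30092.9 in J3T-1shA, 30102.5 in J3T-2 and 28774.6 in J3T-2A. These 4 values lay within 1.05-fold of each other, the smallest range of any annexin, with both lines labelled ANXA2-high below both labelled ANXA2-low. The second probe set had 24127.5, 25725.4, 30310.9 and 35650.8 in the same order of arrays. It was highest in J3T-2A, with a log2 ratio of 0.23 over J3T-2, less than the probe-set spread. It was lowest in J3T-1, and the log2 difference of 0.56 between J3T-2A and J3T-1, the end points of its order, was beyond their spread of 0.36. The third was under the limit on all arrays, with 63.6, 61.2, 167.8 and 14.7, and its ratios are not read. Which part of the ANXA2 transcript, endogenous or introduced, each probe set reads was not tested. In none of the 3 comparisons did an ANXA2 ratio exceed the spread. That spread comes from genes of all brightness and bright probe sets gave smaller ratios, so these values do not show that ANXA2 RNA was level. They give no settled change in it beside which the other annexins could be set.

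ANXA1, a glucocorticoid-regulated inhibitor of inflammation that acts through formyl peptide receptors, was the only annexin whose measured probe sets all had a higher signal on both arrays labelled ANXA2-high. Its brightest probe set had signals of 27976.7 in J3T-1, 21528.9 in J3T-1shA, 23566.4 in J3T-2 and 27955.6 in J3T-2A. J3T-1 and J3T-2A were thus nearly equal and above both others. The log2 ratio was 0.38 in the knockdown comparison, just beyond the probe-set spread of 0.37 but within it under quantile normalization (0.28) and median centring (0.36), and 0.25 in the overexpression comparison, within it. The second probe set had 24732.5 and 25495.1 in J3T-1 and J3T-2A against 20647.9 and 21577.8 in J3T-1shA and J3T-2. The third had 9324.4 and 10175.2 against 6529.9 and 7550.4. This least bright of the ANXA1 probe sets gave the largest ratios, with log2 values of 0.51 in the knockdown comparison and 0.43 in the overexpression comparison, both beyond the spread. The parental comparison gave 0.20 to 0.30 by the 3 probe sets, all within it.

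ANXA3 varied most over the 4 arrays, by 2.35-fold, and ran in opposite directions in the comparisons of ANXA2 state. Its brightest probe set had a signal of 1082.8 in J3T-1shA, 902.5 in J3T-2A, 794.7 in J3T-1 and 460.8 in J3T-2. Neighbours among the first 3 differed by less than the spread, but their end points, J3T-1shA and J3T-1, differed by more. J3T-2 stood below all of them. The log2 ratio was 0.97 in the overexpression comparison, the largest of any annexin there, 0.79 in the parental comparison and -0.45 in the knockdown comparison. The second probe set was dim, with 263.8, 235.1, 216.2 and 155.5 in the same order of arrays, and reached 250 only in J3T-1shA. It gave a log2 ratio of -0.29 in the knockdown comparison, within the spread.

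ANXA4 and ANXA6 had higher signals in J3T-1shA than in J3T-1. ANXA4, which acts in the repair of the plasma membrane, had signals of 1733.6 in J3T-1shA and 1231.9 in J3T-1 by its brightest probe set, with 1532.5 in J3T-2 and 1860.7 in J3T-2A. Its second had 1499.1, 752.8, 1081.9 and 1523.9 in the same order of arrays. In both, J3T-1 was lowest and J3T-2A highest, with J3T-2A and J3T-1shA differing by less than the spread. The log2 ratios were -0.49 and -0.99 in the knockdown comparison and 0.28 and 0.49 in the overexpression comparison, so that the lines labelled ANXA2-high were on opposite sides. Of the latter pair, only the second exceeded the spread.

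ANXA6, whose core is larger than that of the other annexins and which acts as a scaffold in membrane traffic and Ras inactivation, was highest in J3T-1shA by all 3 probe sets. The brightest had a signal of 2543.4 there, against 1533.1, 1629.0 and 1683.9 in J3T-1, J3T-2 and J3T-2A. The next had 1581.4 against 1282.7, 1247.3 and 1188.3, and the least bright had 1468.8 against 629.5, 789.8 and 801.3. On the other 3 arrays, neighbouring values differed by less than the spread in each probe set. The log2 ratios in the knockdown comparison were -0.73, -0.30 and -1.22, the last being the only annexin value over 2-fold, and the middle one was within the spread. For the overexpression comparison they were 0.048, -0.070 and 0.021. The array labelled J3T-1shA also carried the highest summed signal of 8 fibroblast and pericyte markers (81881, against 39901 in J3T-1, 54681 in J3T-2 and 73537 in J3T-2A), 6 of which reached 250 on some array while the pericyte markers PDGFRB and RGS5 stayed under it. COL1A1, COL1A2 and ACTA2 were highest in J3T-1shA, the last at 13625.3 against 562.2 in J3T-1, whereas DCN was highest in J3T-2 and LUM and THY1 in J3T-2A. The part of such RNA in the ANXA4 and ANXA6 values was not tested.

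ANXA5, which binds exposed phosphatidylserine and is the common probe for apoptotic cells, had 1 measured probe set. Its signals were 7192.6 in J3T-1, 4298.6 in J3T-1shA, 9569.3 in J3T-2 and 8615.2 in J3T-2A. The array labelled J3T-1shA stood below the others. Neighbours among the rest differed by less than the spread, but their end points, J3T-2 and J3T-1, differed by more. The log2 ratio was 0.74 in the knockdown comparison, -0.15 in the overexpression comparison and -0.41 in the parental comparison. Its other probe sets had signals of 0.90 to 32.5 and are not read.

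ANXA7 and ANXA11, each with a long N-terminal part, varied by 1.11-fold and 1.31-fold over the 4 arrays in their brightest probe sets. ANXA7, which promotes fusion of membranes and binds sorcin, had 3377.5 in J3T-1, 3033.6 in J3T-1shA, 3321.7 in J3T-2 and 3073.9 in J3T-2A by its brightest probe set. Its second had 2572.6, 2756.5, 2861.9 and 2383.0. No pair of neighbours or end points in either order differed by more than the spread. ANXA11, which links RNA granules to lysosomes, had 8918.0, 6814.4, 7190.3 and 7377.6 by its brightest probe set and 1824.5, 1780.0, 1748.1 and 1509.0 by its second. The former gave a log2 ratio of 0.39 in the knockdown comparison, just past the spread but within it under quantile normalization (0.36) and median centring (0.37), and the latter 0.036.

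**Figure D2:**
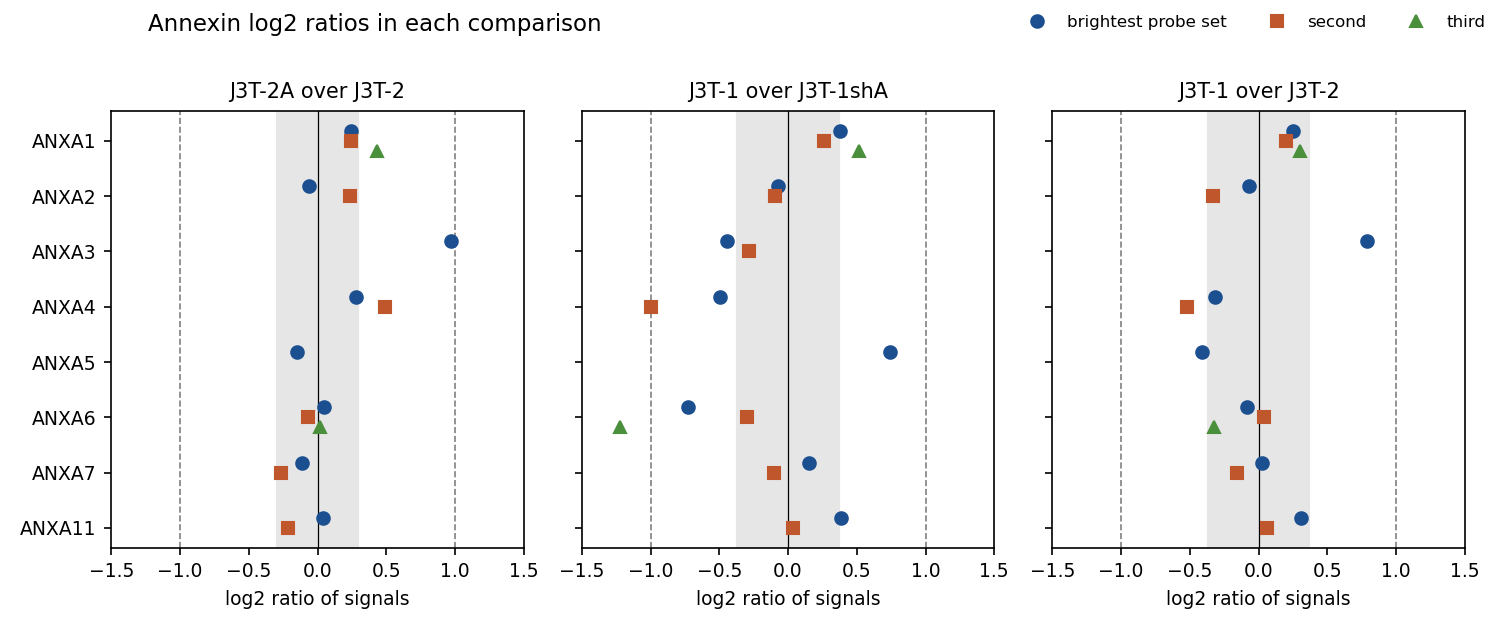
Log2 ratio of signals (x axis) of each measured annexin probe set in the overexpression (J3T-2A over J3T-2), knockdown (J3T-1 over J3T-1shA) and parental (J3T-1 over J3T-2) comparisons, 1 array per line, with the probe-set spread of each comparison as a grey band of 1 SD to either side of 0, and 2-fold as dashed lines. ANXA1 lies to the right of 0 throughout, ANXA3 and ANXA4 lie to the right in the overexpression comparison and to the left in the knockdown comparison, and a single point, of ANXA6 at -1.22, lies past 2-fold.

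No annexin was lower on both arrays labelled ANXA2-high in all its measured probe sets. In J3T-1shA, 4 of 8 annexins had a higher signal than in J3T-1 in all measured probe sets, namely ANXA2 itself (within the spread), ANXA3, ANXA4 and ANXA6. ANXA1, ANXA5 and ANXA11 were lower there in all of theirs. Of all 6952 measured genes, 41.8% were higher in J3T-1shA in all measured probe sets and 42.4% lower. In the other comparison, ANXA5 and ANXA7 were the 2 annexins with a higher signal in J3T-2 than in J3T-2A in all of theirs, in each case within the spread. Of 6867 genes measured there, 41.8% had a higher signal in J3T-2 in all measured probe sets and 40.6% a lower one. ANXA1 was higher with the ANXA2-high label in both, as were 15.4% of 6568 genes measured in both, and 14.5% were lower in both. ANXA3, ANXA4 and ANXA5 ran in opposite directions, and the remaining 4 had a comparison in which their probe sets disagreed in sign. The share of all genes that ran in opposite directions was not counted. Over all genes with at least 2 measured probe sets, both brightest had the same sign in 74.0% in the overexpression comparison and 77.1% in the knockdown comparison.

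ANXA2 and ANXA1 were read at the bright end of the scale, where the spread of ratios was smaller in all 3 comparisons. Their 4 bright probe sets were among the 299 with a mean signal of 16000 or more. The brightest ANXA2 probe set ranked between 64 and 84 of 42924 on the 4 arrays and had 62.1% to 67.7% of the highest signal of its array, which was 44435 to 46646. In this bright class, log2 ratios had an SD of 0.18 in the overexpression comparison, 0.32 in the knockdown comparison and 0.23 in the parental comparison. Among probe sets with a mean of 1000 to 4000 the SDs were 0.41, 0.61 and 0.58. Of the 299, 2, 5 and 3 were over 2-fold different in the 3 comparisons, which is 0.67%, 1.67% and 1.0%, compared with 2.60%, 6.54% and 5.12% at 1000 to 4000. The largest ratios of the bright class were 2.20-fold, 4.84-fold and 2.43-fold, so large ratios did occur in it. Whether genes in this class also differ less in their RNA was not tested. In 9 of these 10 ratios over 2-fold the lower signal was under 16000. Where both signals were at 16000 or more, 0 of 279, 0 of 250 and 1 of 270 probe sets were over 2-fold different, and the largest ratios were 1.74-fold, 1.61-fold and 2.04-fold. Requiring both signals at 16000 or more by itself caps a ratio, given the highest signals of 44435 to 46646, and leaves out probe sets that fell below. These last counts therefore do not show how far bright signals limit ratios.

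**Figure D3:**
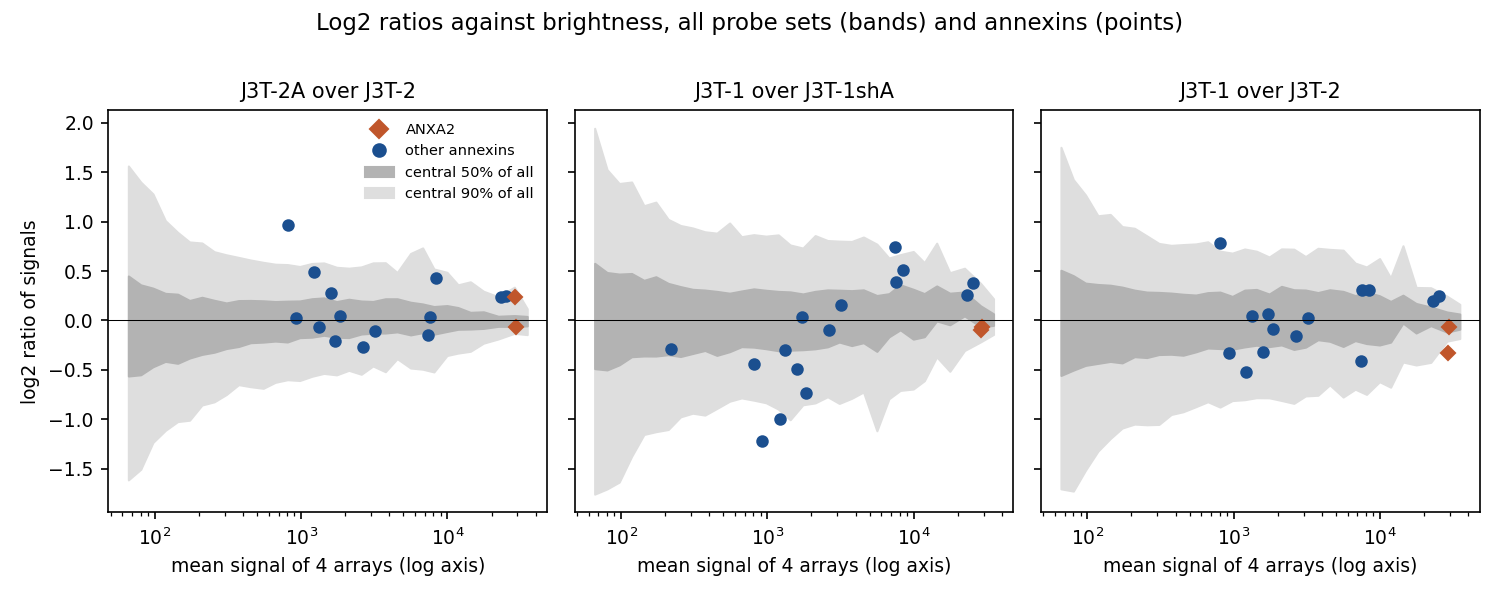
Log2 ratio (y axis) against the mean signal of the 4 arrays (x axis, log scale) for all probe sets, as bands holding the central 50% and 90% in bins of mean signal, with annexin probe sets as points. The bands narrow as signals grow brighter, and the bright probe sets of ANXA2 and ANXA1 lie at the narrow end.

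Probe sets with mean signals of 25000 to 32000 are the closest setting for ANXA2 and for the brightest probe set of ANXA1. The central 90% of log2 ratios of these 63 probe sets ran from -0.13 to 0.34 in the overexpression comparison, from -0.22 to 0.37 in the knockdown comparison and from -0.21 to 0.25 in the parental comparison. The brightest ANXA2 probe set lay inside all 3 ranges. Its second lay below the range in the parental comparison, at -0.33, and inside the others. The brightest ANXA1 probe set, at 0.25, 0.38 and 0.25, lay inside the first range and just above both others. Its mean signal was near the lower bound of this class, and for probe sets of 20000 to 25000 the ranges ended at 0.24, 0.53 and 0.33.

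Within single genes, bright probe sets gave smaller ratios than dimmer ones. In 45 genes with a probe set of mean signal 16000 or more and another of 250 to 8000, the median size of the log2 ratio was 0.10 in the bright and 0.17 in the dimmer probe set in the overexpression comparison. It was 0.19 and 0.30 in the knockdown comparison, and 0.13 and 0.17 in the parental comparison. The bright one was the smaller in 34, 32 and 31 of the 45 genes (75.6%, 71.1% and 68.9%). Slopes through 0 of the bright on the dimmer log2 ratio were 0.47, 0.59 and 0.42. In 2126 genes whose brighter probe set was at 1000 to 8000, they were 0.79, 0.78 and 0.76, and the brighter one was the smaller in 53.3%, 52.6% and 51.9% of genes. The bright slopes rest on few genes with large ratios and were 0.36, 0.45 and 0.32 without the 2 largest, and the part of noise in the dimmer probe sets was not tested. Neither ANXA1 nor ANXA2 has a dimmer probe set in this range, so neither is among the 45, while S100A10, the partner of ANXA2, is.

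**Figure D4:**
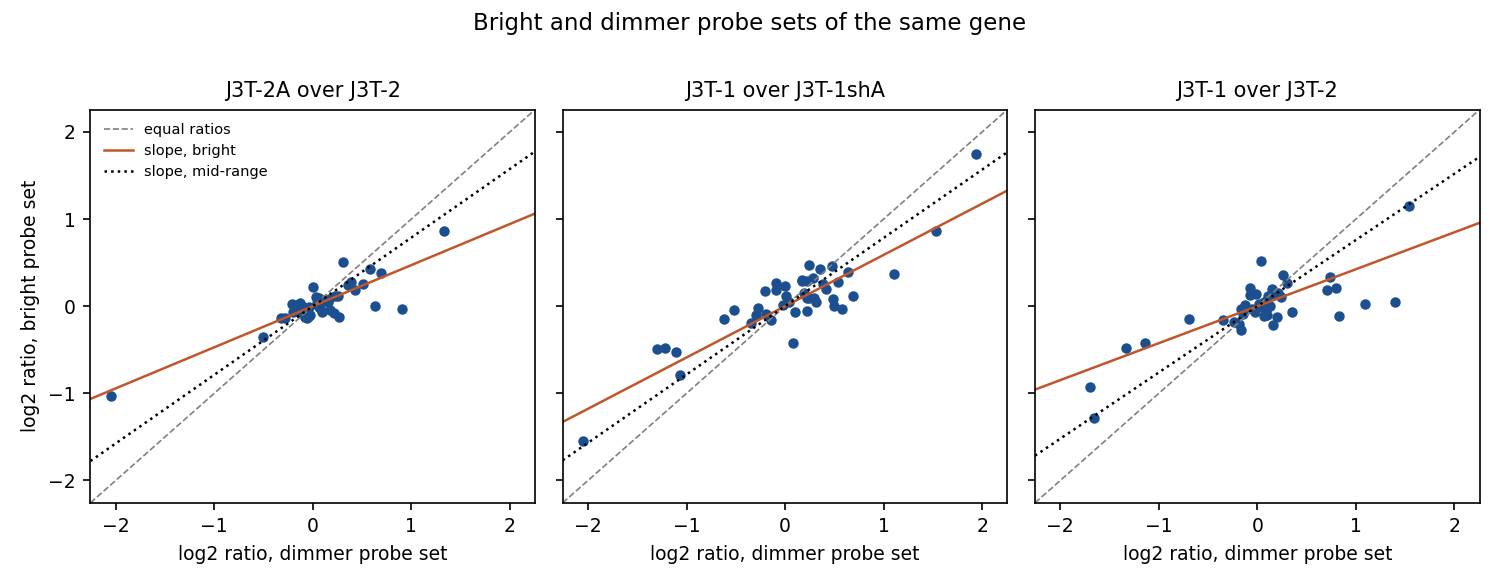
Log2 ratio of the bright probe set (y axis) against that of a dimmer probe set of the same gene (x axis) for 45 genes in each comparison, with the line of equal ratios (dashed), the slope through 0 for these genes (solid) and that for 2126 mid-range genes (dotted). The solid lines, with slopes of 0.47, 0.59 and 0.42, are flatter than the dotted ones in all 3 comparisons.

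Of 17 listed partners, 13 were measured in each comparison. None was over 2-fold different in the overexpression comparison, 1 was higher and 1 lower in the knockdown comparison, and 1 was lower in the parental comparison. Their median log2 ratios were -0.0017, 0.074 and -0.069. Of all measured genes, 3.79%, 8.06% and 6.99% were over 2-fold different, with medians of -0.0034, 0.033 and 0.027. S100A10, which joins ANXA2 in a heterotetramer, had signals of 20191.0 in J3T-1, 16677.5 in J3T-1shA, 21178.0 in J3T-2 and 21740.9 in J3T-2A. Its log2 ratio in the knockdown comparison was 0.28 by this bright probe set, and 0.54 and 0.69 by dimmer ones with signals of 3277 to 4770.7 and 1623.5 to 2620.1, the former marked by the array maker as open to cross-hybridization. Further ones, also so marked, gave 0.21 (signals of 15034 to 18099.4) and 0.44 (9440.8 to 12781.1). In the parental comparison the bright probe set gave -0.069, whereas the one with signals of 1623.5 to 2620.1 gave 0.52, beyond the spread. S100A11, a partner of ANXA1, had 15275.8, 14748.4, 16685.2 and 19006.2, and S100A6, a partner of ANXA11, had 30320.3, 28808.6, 33985.2 and 33945.2. SRI, or sorcin, which binds ANXA7, had 4632.2, 5093.4, 4564.3 and 4603.4. All values of these last 3 lay within the spread by their brightest probe sets, while a dimmer S100A11 probe set (5203.6 to 7624.0) gave 0.43 in the overexpression comparison, beyond it. S100A4, a further S100 partner, had 30988.1 in J3T-1, 19255.1 in J3T-1shA, 29544 in J3T-2 and 16960 in J3T-2A by its 1 probe set. Its log2 ratios were -0.80 in the overexpression comparison and 0.69 in the knockdown comparison, both beyond the spread, and it is named here after its values were seen. Of the 13 measured partners, 3, 6 and 6 lay beyond the spread in the 3 comparisons. This compares with 34.4%, 40.5% and 40.4% of all measured genes.

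The formyl peptide receptor FPR2 was under the limit (28.2 to 85.2), and FPR1 had no probe set. The partners over 2-fold different were PLAT and PLA2G4A. PLAT, the tissue plasminogen activator that ANXA2 binds, had signals of 367.7 in J3T-1, 1223.3 in J3T-1shA, 1037.0 in J3T-2 and 1487.4 in J3T-2A. It was 3.33-fold lower in J3T-1 than in J3T-1shA and 2.82-fold lower than in J3T-2, by its 1 probe set. In J3T-2A it was 1.43-fold higher than in J3T-2 (log2 ratio 0.52, beyond the spread). PLAT thus ran in opposite directions in the comparisons of ANXA2 state. PLA2G4A, the cytosolic phospholipase whose activity ANXA1 inhibits, had 3811.7, 1737.6, 2484.1 and 3286.3 in the order of arrays given for PLAT. Its value was 2.19-fold higher in J3T-1 than in J3T-1shA, and a second probe set gave a log2 ratio of 0.73 there. In the overexpression comparison the 2 probe sets gave log2 ratios of 0.40 and 0.40, both beyond the spread. The parental comparison gave 0.62 and 0.24, the latter within it.

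Of 18 listed genes of membrane repair and calcium-dependent membrane traffic, 14 were measured. Their median log2 ratios were 0.14, 0.064 and 0.13 in the 3 comparisons, beside -0.0034, 0.033 and 0.027 for all measured genes. MYOF, the membrane-repair protein myoferlin, was the single gene over 2-fold different. It passed 2-fold in the overexpression and parental comparisons, as did 3.79% and 6.99% of all measured genes. Its signals were 888.1 in J3T-2 against 1983.4 in J3T-2A, 2148.6 in J3T-1 and 2033.2 in J3T-1shA, so J3T-2 stood apart, as it did for ANXA3. The log2 ratios were 1.16 in the overexpression comparison, 1.27 in the parental comparison and 0.080 in the knockdown comparison.

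The genes whose pattern over the 4 arrays was most like that of ANXA3 were MRAP, RRAS2, PEX19, ASAP1 and TGFB3. Their log2 signals, centred on each gene's own mean, lay at root mean square distances of 0.063 to 0.088 from those of ANXA3, the smallest of 7240 genes compared. With 4 arrays this is a description only. RRAS2 had signals of 6248.9 in J3T-1, 7893.6 in J3T-1shA, 3661.6 in J3T-2 and 6314.9 in J3T-2A. Its lowest signal in J3T-2 follows from how it was picked.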

How the data were processed

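Total RNA of 4 canine glioma lines was labelled with a 3′ in vitro transcription kit and hybridized to 1 GeneChip Canine Genome 2.0 array per line. The authors derived linear signal intensities from each array alone by MAS 5.0, scaling every array to a common trimmed mean. The deposited intensities are linear, 42924 for each array, and detection calls were not given. The stated trimmed mean was 100, whereas the deposited columns had trimmed means of 495.8 to 496.0 with 2% left out at each end, so signal limits were set 5 times higher.

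Probe sets were named by the array annotation, with symbols looked up by Entrez identifier in the RefSeq gene table of the UU_Cfam_GSD_1.0 dog assembly (27680 matched and 0 changed). Of all probe sets, 29254 had 1 symbol, 439 had several and 13231 were not listed. Each of 15115 genes was represented by the probe set of highest mean signal. Ratios were taken without pseudocount or floor, in Python 3.11.15 with numpy 2.4.6 and pandas 2.3.3. Ratios were read where at least 1 of both signals reached 250, with a ratio over 2 as the call.

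With 1 array per line there was no test. Differences were read against the SD of the difference in log2 ratio between both brightest probe sets of a gene. The functions for this SD and for the slope of bright on dimmer probe sets were tested on simulated data. The members and gene lists were chosen with earlier results of these data known. Named genes were all members, list genes over 2-fold in any comparison, S100A10, S100A11, S100A6, SRI and the 5 genes most like the most variable member. Alternatives were quantile normalization, median centring, a pseudocount of 80, a floor of 160, signal limits of 500 and none, medians over the probe sets of a gene and other brightness bounds. Slopes without the 2 or 5 genes of largest ratio were added after seeing the data. The arrays' build and the place of each probe set in its transcript were not given in the sources used here, so no positions are printed.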

Additional observations from a re-analysis of the deposited data

Results flagged for a closer look

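ANXA3 had a higher signal in J3T-2A than in J3T-2 (log2 ratio 0.97) and a lower one in J3T-1 than in J3T-1shA (-0.45), both beyond the spread between probe sets of a gene, by its brightest probe set. The ratios differ by 1.42 in log2. It was picked out because the single pair of each comparison ran the opposite way, and the difference was not tested, since there was 1 array per line.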

How the results depend on the processing

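With 1 array per line, no replicate could be left out and no value carries a test. No paired analysis was possible because each line had a single array. Quantile normalization, median centring, a pseudocount of 80, a floor of 160 and median values over the probe sets of a gene moved the log2 ratios of single annexins by at most 0.094, 0.018, 0.11, 0 and 0.26. Against the probe-set spread, quantile normalization and median centring left 4 of the 6 annexins beyond it in the knockdown comparison. Medians over probe sets left 4 there and added ANXA4 in both others. Of 120 such values 3 changed sign, all of ANXA7 or ANXA11 and of at most 0.037 in log2. The count of annexins over 2-fold stayed at 0 in each comparison under these alternatives, with a signal limit of 500 and with none. The slope of bright on dimmer probe sets moved with the genes taken. With bounds of 8000 and 4000 it was 0.54, 0.56 and 0.65 in the overexpression, knockdown and parental comparisons. In alternatives chosen after the data were seen, it was, in the same order, 0.36, 0.45 and 0.32 without the 2 genes of largest ratio and 0.54, 0.44 and 0.23 without the 5 largest. All of these were under the slopes of the mid-range genes. Ratios at the brightness of ANXA2 and ANXA1 had a smaller spread than at mid-range signals, and the deposited table holds no detection calls.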

Other observations

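Other annexin symbols on the array were dim. Of 11 probe sets of ANXA8L1, ANXA9, ANXA10 and ANXA13, 1 reached 250 on any array, a probe set of ANXA9 with 252.2 in J3T-2 against 101.1 in J3T-1, 145.9 in J3T-1shA and 145.0 in J3T-2A. The probe sets of ANXA8L1, ANXA10 and ANXA13 had signals of at most 79.8 on any array.

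Among probe sets with a mean signal of 16000 or more that were over 2-fold different was one of COL1A2, a collagen chain, with 23359.7 in J3T-2A against 10637.4 in J3T-2 and 10918.5 in J3T-1 against 26179.2 in J3T-1shA. SNCG, which encodes gamma-synuclein, had 28237.7 in J3T-2 against 13867.6 in J3T-2A and 21068.0 in J3T-1 against 6295.7 in J3T-1shA. Both ran in opposite directions in the comparisons of ANXA2 state. They were named after their values were seen.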
